A study of Mus musculus with 4 samples.

Results

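Aminoacyl-tRNA synthetases are the enzymes that join each amino acid to its transfer RNA. The 36 genes described here, 20 that encode cytosolic enzymes and 16 that encode mitochondrial enzymes, were taken by name from the 12390 genes of the deposited table. All 36 had values, and the annotation gives Mars1 under its older symbol Mars. RNA was sequenced from 4 sorts of mouse bone marrow, each of about 5000 cells in the hematopoietic stem cell gate (Lin-, Sca-1+, c-Kit+, CD48-, CD150+). The 2 control libraries came from Ddx21 fl/fl mice, labelled WT, and the 2 knockout libraries from Ddx21 fl/fl mice with CAG-CreERT2, so both groups carry floxed alleles of Ddx21, a nucleolar RNA helicase gene. CAG-CreERT2 is a tamoxifen-inducible Cre under a promoter active in most cell types, so deletion is not limited to blood cells. The sources used here do not state the tamoxifen dosing, the time after it, the deleted exons, the age of the animals or how many animals gave a library. The p-values therefore measure only a spread between samples that may be technical. In the fit used here that spread follows the trend over all genes by level and not each gene's own samples.

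Each synthetase recognises 1 amino acid and its transfer RNAs, except the Eprs protein, which serves both glutamate and proline. The enzyme activates the amino acid with ATP and transfers it to the RNA, which then feeds the ribosome. The enzymes fall into 2 structural classes, class I and class II, by the fold of their catalytic domain. Most amino acids have a cytosolic enzyme and a separate mitochondrial enzyme, both encoded in the nucleus, while Gars and Kars each encode both forms and are counted here with the cytosolic genes. In mammals 8 of the cytosolic genes encode the enzymes of the multi-synthetase complex, an assembly held together by scaffold proteins. Genes of several cytosolic synthetases are known targets of ATF4, the transcription factor of the amino acid and integrated stress responses.

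The libraries held 55719259 and 62871438 reads in control replicates 1 and 2 and 43256641 and 43218010 in knockout replicates 1 and 2, recovered from the deposited values. Values are RPKM, reads scaled by transcript length and by library size. Ddx21 itself had 11.0 and 12.1 RPKM in control against 6.20 and 6.60 RPKM in knockout, with no overlap, and its log2 fold change of -0.76 (SE 0.30, limma adjusted p = 0.158) did not pass the threshold. It passed with voom on the recovered reads (-1.21, adjusted p = 0.0303). It did not pass with TMM-type rescaling (-1.07, adjusted p = 0.0956), a pseudocount of 0.1 (adjusted p = 0.122) or a replicate block (adjusted p = 0.541). Leaving out 1 library gave log2 fold changes between -0.83 and -0.69. Of the genes tested, 391 (3.33%) were higher and 101 (0.86%) lower in the knockout, 4.19% in either direction, at an adjusted p under 0.05. Over the tested genes the median log2 fold change was 0.31 as deposited. TMM-type rescaling, which sets most genes of the libraries to a common level, brought it to 0.02. The 10 markers of neutrophils and granule-bearing progenitors summed to 68932 and 71457 RPKM in control and to 48699 and 31358 RPKM in knockout, and all 10 fell. The 8 bone matrix and stroma markers summed to 447 and 260.1 RPKM in control and to 6325 and 1587 RPKM in knockout, and all 8 rose. As deposited every one of these markers passed the threshold. After rescaling none did, with the directions kept and the smallest limma adjusted p at 0.0664 (Mmp2). With voom Mmp2 (adjusted p = 0.0150) and Col1a1 (adjusted p = 0.0482) passed. None of the 4 genes of the sort gate was called. Their part in the synthetase values was not tested, and fewer cells of a type and less RNA per cell cannot be told apart in bulk samples.

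None of the 36 synthetase genes passed the threshold in either direction, against 4.19% of all genes tested. Their log2 fold changes, on the log2(RPKM + 1) scale and knockout minus control, lay between -0.25 and 0.55, and the smallest adjusted p-value was 0.268. At an unadjusted p under 0.05, 1 member was higher and 0 were lower, against 13.8% and 2.45% of all genes. The median of the members was 0.18, and 25 of the 36 stood below the 0.31 of all genes tested. Rescaled values and voom on the recovered reads also called 0 members, where they called 1 gene (0.00852%) and 73 genes (0.622%) in all. Of the 36 members, 33 had a log2 fold change above 0 as deposited, a direction shared by 83.1% of all genes, and 13 did after rescaling, against 52.5%. The sign of most members therefore depended on the scaling.

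**Figure D1:**
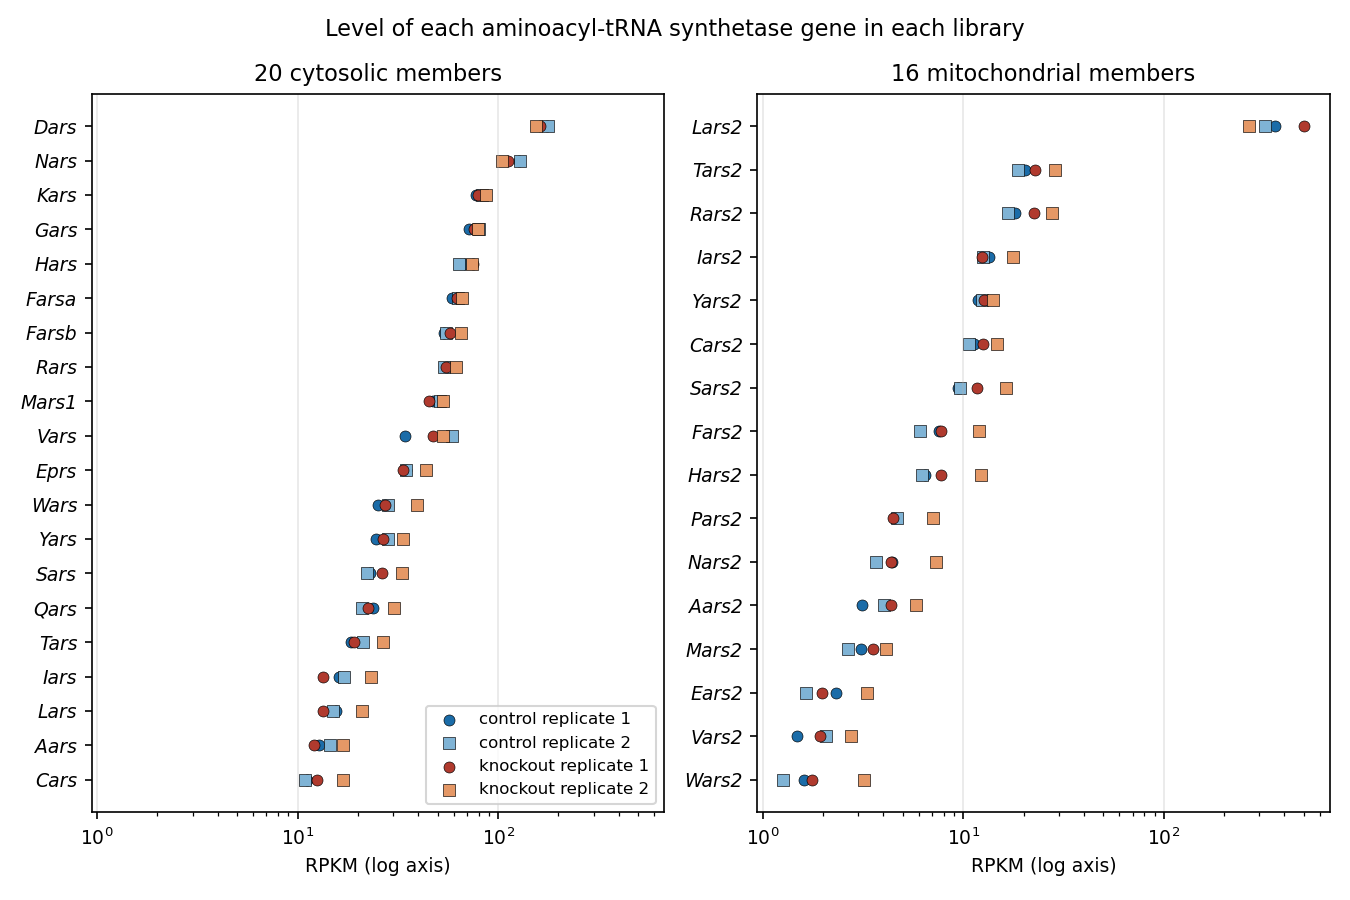
RPKM of each of the 36 genes in each of the 4 libraries, on a log axis, with the 20 cytosolic members at the left and the 16 mitochondrial members at the right, ordered by mean level. Each point is 1 library. Cytosolic members ran from 12.8 RPKM for Cars to 167 RPKM for Dars, and mitochondrial members from 1.95 RPKM for Wars2 to 22.7 RPKM for Tars2, with Lars2 apart at 361 RPKM.

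The cytosolic genes were expressed at higher levels per length than the mitochondrial ones. Mean RPKM over the 4 libraries ran from 12.8 to 167 in the cytosolic genes, with a median of 42.4, and all 20 stood above 10 RPKM. In the 16 mitochondrial genes the median was 8.24 RPKM and 7 stood above 10 RPKM. Dars, which encodes the aspartate enzyme, and Nars, which encodes the asparagine enzyme, headed the cytosolic order at 167 and 118 RPKM and did not overlap each other in any library. Below them Kars (81.7), Gars (77.0), Hars (70.4) and Farsa (62.8) followed closely, and the library ranges of each of these neighbours overlapped. Farsa and Farsb, the catalytic and the second subunit of the cytosolic phenylalanine enzyme, stood at 62.8 and 57.9 RPKM. At the lower end Cars (12.8), Aars (14.1), Lars (16.2) and Iars (17.5) lay between 10.9 and 23.2 RPKM in single libraries. All members together held 0.459% and 0.460% of reads in control and 0.520% and 0.483% in knockout. Without Lars2 these shares were 0.318% and 0.335% in control and 0.324% and 0.379% in knockout.

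Among the cytosolic genes, Nars and Dars were the members that stood lower in both knockout libraries than in both control libraries. Nars (chromosome 18, 64499647 to 64516652, minus strand, mm10) had 128 and 129 RPKM in control and 112 and 104 RPKM in knockout. The groups did not overlap, and the control libraries lay close together (128 ± 0.838 RPKM, SD, n = 2, against 108 ± 5.22 RPKM in knockout). The log2 fold change was -0.25 (SE 0.17, adjusted p = 0.416). Dars (chromosome 1, 128363707 to 128417368, minus strand) had 176 and 177 RPKM in control and 162 and 154 RPKM in knockout, again with no overlap. Its log2 fold change was -0.16 (SE 0.17, adjusted p = 0.543). After rescaling, Nars stood at 142 and 149 RPKM in control and at 114 and 79.8 RPKM in knockout, with a log2 fold change of -0.60 (adjusted p = 0.285), and Dars had -0.51 (adjusted p = 0.341). Neither passed the threshold under any of the alternative settings. Groups without overlap in this direction were found for 7.38% of all genes tested as deposited, and for 24.7% of those averaging 50 RPKM or more, where both genes lie.

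The other cytosolic genes with low log2 fold changes were Mars1, Gars and Aars. Mars1, which encodes the methionine enzyme that also charges the initiator transfer RNA, had 47.3 and 51.3 RPKM in control and 45.4 and 53.0 RPKM in knockout, and the log2 fold change was -0.00 (SE 0.20, adjusted p = 0.988). Knockout replicate 1 was the lowest library and knockout replicate 2 the highest, so the groups overlapped. Gars, the glycine enzyme gene, had 71.9 and 80.5 RPKM in control and 76.1 and 79.7 RPKM in knockout, and the log2 fold change was 0.03 (SE 0.18, adjusted p = 0.902). Both knockout libraries lay between the control libraries. Aars, the alanine enzyme gene, had 12.8 and 14.6 RPKM in control and 12.0 and 16.9 RPKM in knockout, and the log2 fold change was 0.06 (SE 0.26, adjusted p = 0.881). The knockout libraries enclosed the control libraries here. Kars, which encodes the lysine enzyme of both compartments, had 77.2 and 82.7 RPKM in control and 79.6 and 87.3 RPKM in knockout, and its log2 fold change was 0.06 (SE 0.18, adjusted p = 0.823). These groups overlapped as well.

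Sars and Cars, for the serine and cysteine enzymes, had the highest log2 fold changes of the cytosolic genes, 0.38 (adjusted p = 0.362) and 0.37 (adjusted p = 0.428), and were the 2 cytosolic members above the median of all genes. Sars had 22.9 and 22.1 RPKM in control and 26.4 and 33.1 RPKM in knockout, and its groups did not overlap. After rescaling both stood at 0.04. Cars, Hars and Farsb, the last 2 at 0.17 each, were likewise higher in both knockout libraries than in both controls, which gave 4 of 20 in that direction and 2 of 20 in the other, while the remaining 14 overlapped. Over all genes tested, 55.5% did not overlap in the higher direction. The same held for 2286 of the 4593 averaging 10 RPKM or more, and for 354 of the 1314 averaging 50 RPKM or more. Vars, the valine enzyme gene, had the widest spread between the control libraries relative to its level, at 34.2 and 58.7 RPKM in control and 47.1 and 53.0 RPKM in knockout.

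The multi-synthetase complex was described apart from the other cytosolic enzymes. Its 8 genes, Dars, Eprs, Iars, Kars, Lars, Mars1, Qars and Rars, had a median log2 fold change of 0.09, and all 8 stood below the median of all genes. The 12 other cytosolic genes had a median of 0.17, with 10 below that median. Summed RPKM of the complex genes was 447 and 453 in control and 425 and 474 in knockout, so that the knockout libraries enclosed the control libraries. Eprs, which encodes a single protein with the glutamate and the proline enzyme, had 34.7 and 34.8 RPKM in control and 33.5 and 43.5 RPKM in knockout. In 7 of the 8 genes the groups overlapped as deposited. After rescaling all 8 stood lower in both knockout libraries, as did 14 of the 20 cytosolic genes. The same held for 25.7% of all genes tested and for 43.2% of those averaging 10 RPKM or more. Among tested genes averaging 50 RPKM or more it held for 897 of 1314. By structural class, the cytosolic medians were 0.15 for the 9 class I and 0.07 for the 10 class II genes, with Eprs holding both.

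**Figure D2:**
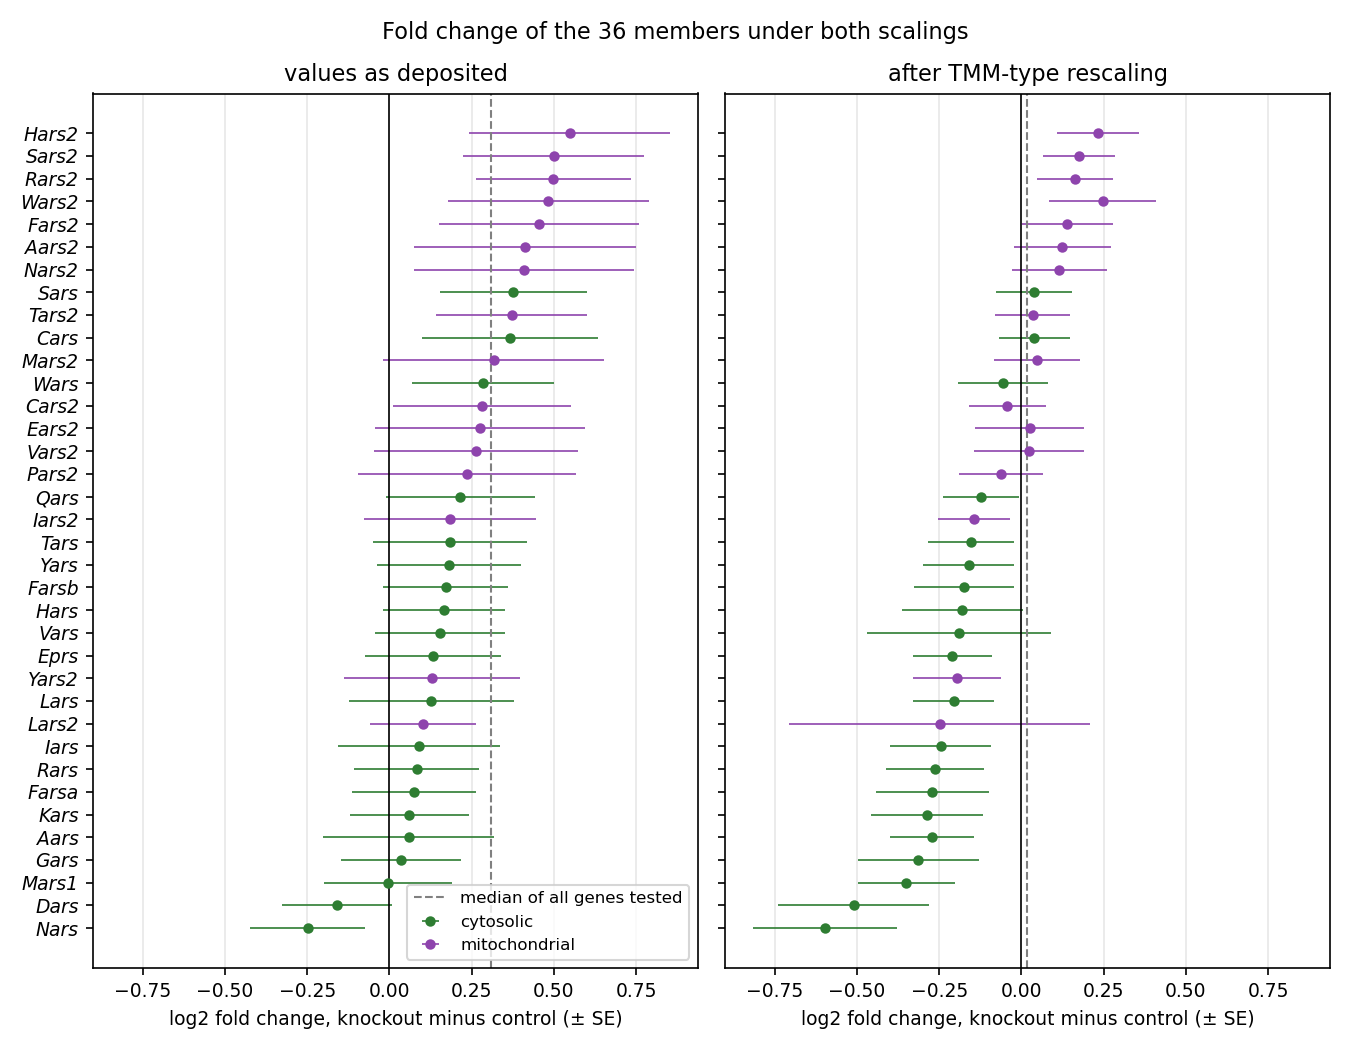
Log2 fold change, knockout minus control, with SE from limma, for the 36 members, as deposited (left) and after TMM-type rescaling (right), with the same order and axis in both panels. Points are green for cytosolic and purple for mitochondrial genes, and the dashed line is the median of all genes tested, 0.31 at the left and 0.02 at the right. Mitochondrial genes occupy the upper end and cytosolic genes the lower end under both scalings, and no member passed the threshold in either.

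Promoters of the cytosolic genes were examined because ATF4 is known to act on several of them through the C/EBP-ATF response element, TGATGNAAN. RefSeq windows of 300 bases, 250 before and 50 after the start site (GRCm38.p6), were searched for it on both strands, with no other motif searched. A window was matched for 27 of the 36 members. Cars, Hars, Lars, Nars, Rars, Vars, Wars, Hars2 and Pars2 had no entry. The motif was found in 5 of the 27 (18.5%), in 6 of 20 genes of the ATF4 and amino acid response list, and in 1215 of 27025 genes overall (4.50%). All 5 were cytosolic genes, among 13 of them with a window, and 0 of 14 mitochondrial windows held it. At least 1 match in each of the 5 genes is shown 5′ to 3′ on the strand of the gene, with the motif in capitals, read on the opposite strand in all but Yars.
Aars, chr8:111033840-111033868, plus strand: agcgggtcacTTTTCATCAgagcgctctg
Gars, chr6:55037960-55037988, plus strand: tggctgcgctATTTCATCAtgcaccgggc
Iars, chr13:49682126-49682154, plus strand: cactgtcagtATTGCATCAcctccagacg
Tars, chr15:11399656-11399684, minus strand: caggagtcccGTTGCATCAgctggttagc
Yars, chr4:129189896-129189924, plus strand: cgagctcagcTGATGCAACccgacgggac

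The 5 cytosolic genes with the motif had log2 fold changes between 0.03 (Gars) and 0.18 (Tars), with a median of 0.09. The 8 cytosolic genes whose window did not hold it ran from -0.16 (Dars) to 0.38 (Sars), with a median of 0.10. None of the 5 genes passed the threshold, and a match is a description of the sequence and not a bound site. Iars, the isoleucine enzyme gene, had 16.1 and 17.1 RPKM in control and 13.5 and 23.2 RPKM in knockout, so its knockout libraries lay on both sides of the controls. Tars, for threonine, had 18.5 and 21.2 RPKM in control and 19.2 and 26.7 RPKM in knockout, and Yars, for tyrosine, 24.5 and 28.3 against 26.7 and 33.6 RPKM. In all 5 genes the groups overlapped.

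The mitochondrial genes charge transfer RNAs for the proteins encoded in mitochondrial DNA. Their median log2 fold change was 0.34, and all 16 were above 0 as deposited, 11 of them also after rescaling. Of the 16, 9 stood above the median of all genes, against 2 of the 20 cytosolic genes. In 10 of the 16 both knockout libraries were higher than both control libraries (55.5% of all genes tested, and 59.2% of those under 10 RPKM), and in the other 6 the groups overlapped. After rescaling this held for 4 of the 16, Hars2, Sars2, Rars2 and Wars2, against 28.7% of all genes, and Iars2 and Yars2 were lower in both knockout libraries. The 7 class II genes had a median of 0.41 with 6 above the median of all genes, and the 9 class I genes a median of 0.28 with 3 above it.

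Hars2, which encodes the mitochondrial histidine enzyme (chromosome 18, 36783008 to 36792562, plus strand), had 6.45 and 6.22 RPKM in control and 7.71 and 12.2 RPKM in knockout. Its log2 fold change, 0.55 (SE 0.31, adjusted p = 0.345), was the highest of the 36. Both knockout libraries were above the controls, with knockout replicate 2 far above replicate 1. Rars2, the mitochondrial arginine enzyme gene (chromosome 4, 34614957 to 34660167, plus strand), had 18.2 and 16.7 RPKM in control and 22.5 and 27.8 RPKM in knockout, and the log2 fold change was 0.50 (SE 0.23, adjusted p = 0.268). It was the single member with an unadjusted p under 0.05, and its groups did not overlap. Sars2, for serine, had 9.44 and 9.60 RPKM in control and 11.7 and 16.4 RPKM in knockout, and the log2 fold change was 0.50 (SE 0.28, adjusted p = 0.339). The knockout libraries again lay above both controls.

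Wars2, the mitochondrial tryptophan enzyme gene and the lowest member, had 1.60 and 1.27 RPKM in control and 1.75 and 3.19 RPKM in knockout, and the log2 fold change was 0.48 (SE 0.31, adjusted p = 0.390). Knockout replicate 1 stood just above control replicate 1, and the gap between the groups came mainly from knockout replicate 2. Fars2, for phenylalanine, had 7.56 and 6.06 RPKM in control and 7.72 and 12.0 RPKM in knockout, and the log2 fold change was 0.45 (SE 0.30, adjusted p = 0.407), and the same can be said of its libraries. Tars2, for threonine, the second most abundant mitochondrial gene, had 20.4 and 18.8 RPKM in control and 22.8 and 28.8 RPKM in knockout, and the log2 fold change was 0.37 (SE 0.23, adjusted p = 0.382), with no overlap between the groups. Yars2 and Iars2, for tyrosine and isoleucine, were at 0.13 and 0.18. Ears2, Vars2 and Mars2, none above 4.12 RPKM in any library, were at 0.28, 0.26 and 0.32.

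Lars2, the mitochondrial leucine enzyme gene (chromosome 9, 123366927 to 123462666, plus strand), stood apart in level and in spread. It had 359 and 319.8 RPKM in control and 499 and 265 RPKM in knockout, from 78264, 78667, 84592 and 44975 reads. The knockout libraries lay on both sides of the controls, and the log2 fold change was 0.10 (SE 0.16, adjusted p = 0.672). The SD of 166 RPKM between the knockout libraries compares with 27.5 RPKM between the controls. Lars2 was above the next mitochondrial gene, Tars2 at 22.7 RPKM, in every library. A stretch of 72 bases in its last exon, after the coding sequence (chr9:123462048-123462119, mm10), matches Gm15564, a noncoding gene on chromosome 16, with 1 mismatch, so reads that lie within it match both genes almost equally. The first 30 bases of it in Lars2 are shown because reads from it may be shared (chr9:123462048-123462077, plus strand).
Lars2: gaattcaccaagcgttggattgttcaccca
Gm15564 stood at 159 and 136 RPKM in control and at 209 and 117 RPKM in knockout, so that knockout replicate 1 was the highest and knockout replicate 2 the lowest library for both genes. The stretch was compared with Gm15564 alone, and other RNAs that may hold it were not looked for. The treatment of reads that match several genes is not stated in the sources used here, and the part of the shared stretch in the Lars2 value was not tested.

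**Figure D3:**
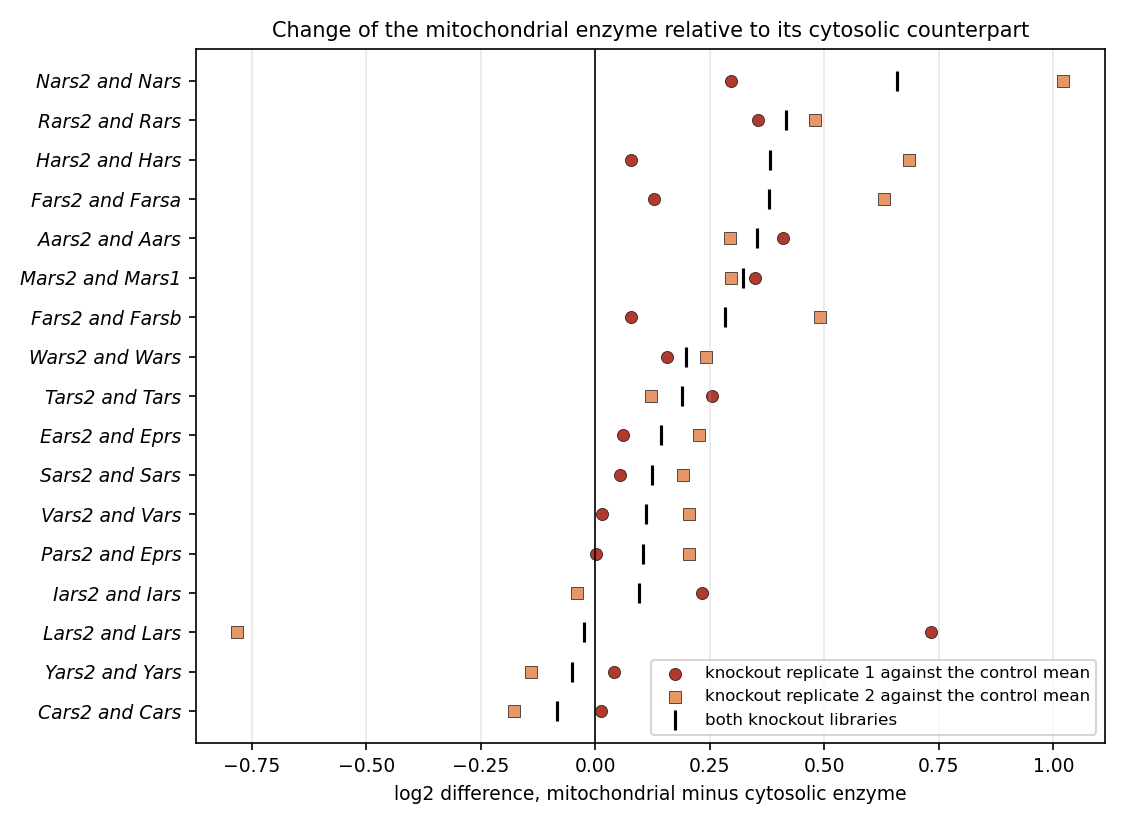
Log2 difference between the mitochondrial and the cytosolic enzyme of an amino acid, for 17 pairs and each knockout library against the control mean, with a bar at the value over both knockout libraries. The difference was above 0 in 14 pairs over both libraries, in 17 in knockout replicate 1 and in 13 in knockout replicate 2, and Lars2 and Lars lie far apart between the libraries, at 0.73 and -0.78.

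For each amino acid served by both compartments, the mitochondrial gene was set beside its cytosolic counterpart. In 14 of 17 pairs the log2 fold change of the mitochondrial gene was the higher one, and the count was 14 after rescaling and 15 with voom. Fars2 was paired with both Farsa and Farsb, and Eprs with both Ears2 and Pars2. The pairs are therefore not all separate, and those that share a gene are all among the 14. The difference was widest for asparagine, where Nars2 had 0.41 and Nars -0.25, a difference of 0.66. It followed for arginine (0.42), histidine (0.38) and phenylalanine (0.38 for Fars2 against Farsa). It was below 0 for leucine (-0.03), tyrosine (-0.05) and cysteine (-0.08). Nars2 had 4.41 and 3.67 RPKM in control and 4.37 and 7.30 RPKM in knockout, so knockout replicate 1 lay between the controls and knockout replicate 2 above them. In 15 of the 17 pairs the cytosolic gene was the more abundant one. The exceptions were leucine and threonine. For leucine, the Lars2 value may hold reads of the stretch shared with Gm15564, whose part was not tested. For threonine, Tars2 stood at 22.7 and Tars at 21.4 RPKM, and their library ranges overlapped.

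Genes of different levels differed in log2 fold change over the whole table, which bears on the contrast between the compartments. Tested genes averaging 10 RPKM or more had a median of 0.22, those under 10 RPKM 0.35, and those of 50 RPKM or more -0.00. With the tested genes in 10 bins of equal size by mean RPKM, the median fell from 0.37 in the sixth bin to -0.02 in the highest. Against the median of genes in their own bin, 18 members were above and 18 below. Of the cytosolic genes 9 were above and 11 below, with a median difference of -0.06, and of the mitochondrial genes 9 were above and 7 below, with a median difference of 0.04. For Nars the difference was -0.23, for Dars -0.14, for Rars2 0.21 and for Hars2 0.17. Of the 8 complex genes 2 were above and 6 below, with a median difference of -0.11, and of the 7 mitochondrial class II genes 6 were above and 1 below, with 0.08. Between the quartiles of their bin lay 22 of the 36 members. Above the upper quartile were 7, Farsb, Hars, Sars, Hars2, Rars2, Sars2 and Wars2, and below the lower quartile 7, Aars, Iars, Lars, Mars1, Nars, Iars2 and Yars2.

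**Figure D4:**
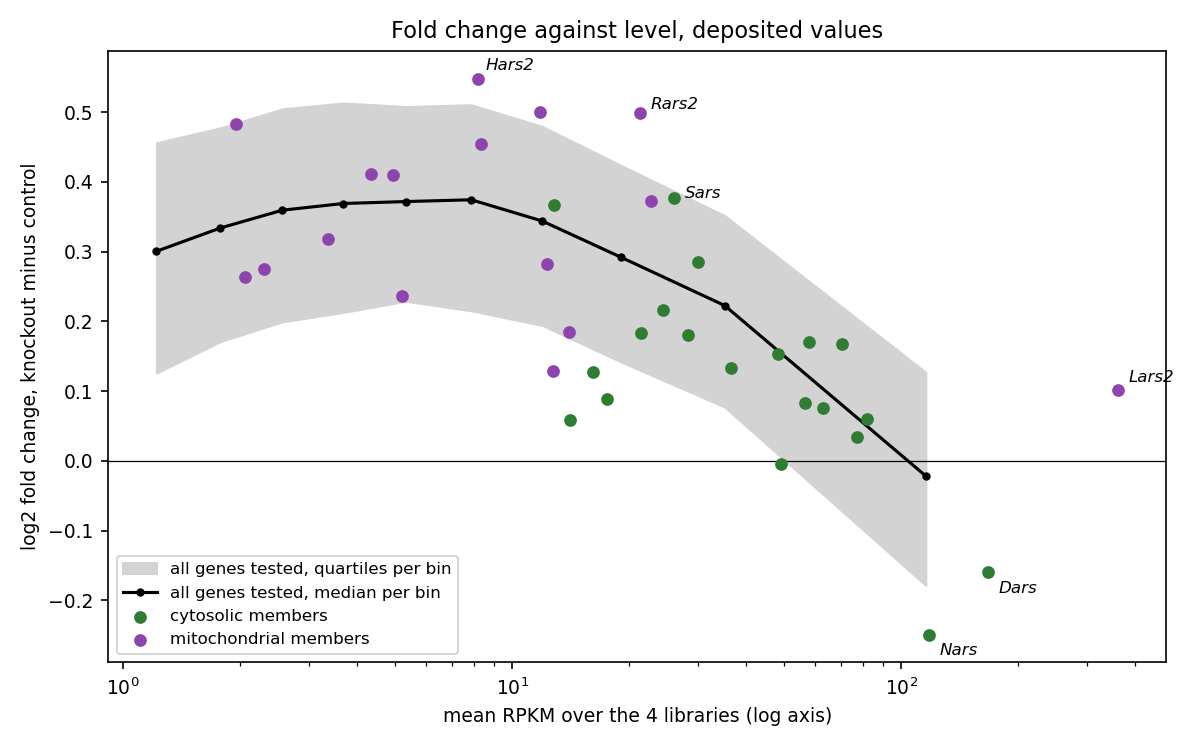
Log2 fold change, knockout minus control, as deposited, against mean RPKM on a log axis, for cytosolic (green) and mitochondrial (purple) members. The black line joins the medians of all tested genes in 10 bins by level and the grey band spans their quartiles; the line falls from 0.37 in the sixth bin to -0.02 in the highest, and the members lie on both sides of it.

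The 2 knockout libraries differed from each other more than the control libraries did. Against the control mean, the median of the members was 0.05 in knockout replicate 1 and 0.42 in knockout replicate 2, where the medians of all genes were 0.12 and 0.50. Between the control libraries the median difference of the members was 0.01. In 32 of the 36 members knockout replicate 2 was above replicate 1, as in 84.7% of all genes, and the exceptions were Dars, Hars, Nars and Lars2. Cytosolic medians were 0.00 and 0.27 in replicates 1 and 2, and mitochondrial medians 0.18 and 0.54. Without knockout replicate 1, 16 members were called higher (44.4%) and 1, Lars2, lower, but that setting called 54.3% of all genes higher and 4.48% lower. Leaving out knockout replicate 2, control replicate 1 or control replicate 2 called 0 members, and 0.928%, 0.358% and 0.307% of all genes. A fit with the replicate number as a block also called 0 members, and 2.04% of all genes.

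Genes that work beside the synthetases were counted in lists, to be read beside the 4.19% called over all genes, a share at which lists of this length hold few calls or none. Of 16 charging partners, which include the complex scaffolds Aimp1, Aimp2 and Eef1e1, the mitochondrial amidotransferase subunits Qrsl1, Gatb and Gatc, and the formyltransferase Mtfmt, 0 were called and the median was 0.31. The smallest p-values belonged to Dtd1, a deacylase of mischarged D-aminoacyl-tRNAs (0.42, adjusted p = 0.272), and Gatc (0.52, adjusted p = 0.299). Of 33 genes of transfer RNA processing, modification and export 0 were called, with a median of 0.36, and Tsen54, a splicing endonuclease subunit (0.57, adjusted p = 0.249), and Maf1, a repressor of RNA polymerase III (0.38, adjusted p = 0.277), came first by p. Of 10 amino acid transporters 0 were called, with a median of 0.32, led by Slc7a7 (0.71, adjusted p = 0.187) and Slc43a1 (0.54, adjusted p = 0.303).

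In the list of ATF4 and the amino acid response, 2 of 22 genes rose (3.33% of all genes did) and 0 fell, with a median of 0.27. Sesn2, an inhibitor of mTORC1 signalling, rose from 1.64 and 2.01 RPKM in control to 5.58 and 9.999 RPKM in knockout (log2 fold change 1.59, SE 0.34, adjusted p = 2.21e-04). Ddit4, another inhibitor of mTORC1, rose from 1.79 and 2.53 to 5.42 and 11.4 RPKM (log2 fold change 1.51, SE 0.34, adjusted p = 5.98e-04). Both are also known p53 targets. After rescaling 0 of the list were called, and voom on the recovered reads called 1, Sesn2. Asns, the asparagine synthetase gene and a well-known ATF4 target, had 37.9 and 26.6 RPKM in control and 40.6 and 37.5 RPKM in knockout, with a log2 fold change of 0.29 (adjusted p = 0.426), and Atf4 itself had -0.06 (adjusted p = 0.812). Trib3, a pseudokinase gene induced by ATF4, had 0.79 (adjusted p = 0.204).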

How the data were processed

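The authors deposited 1 table of normalised values for 12390 genes. Its unit is not stated there and was taken as RPKM from the values: multiplied by transcript length in GENCODE M21, 99.3% to 99.4% of the deposited RPKM values came out as whole reads within a tolerance of 0.1. Genome build mm10 is named in the submitters' processing notes. The aligner, the counting and its use of strand are not stated in the sources used here. A gene without reads is listed at 0.001, and the lowest value of any gene in its highest library is 1.006 RPKM.

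Knockout was compared with control by limma 3.58.1 (R 4.3.3) on the log2(RPKM + 1) scale, letting the variance follow the mean level, in the 11742 genes averaging 1 RPKM or more, with Benjamini-Hochberg adjustment over all of them and a threshold of 0.05. The prior degrees of freedom were infinite, so each gene's spread was taken from the trend. The fit was tested on simulated data with changed genes. Alternatives were TMM-type rescaling, voom with TMM on the recovered reads, a pseudocount of 0.1, no filter, a replicate block and leaving out each library. Shared sequence was found with blastn 2.17.0.

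The 36 members and all lists were chosen with earlier results of these data known. Full values are given for called members, the 5 largest and 5 smallest log2 fold changes, the 3 most abundant genes of each compartment, Ddx21, and the called or else the 2 smallest p-values in related lists. Other genes with values in every library were chosen after their values were seen. Some items are not reported here.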

Additional observations from a re-analysis of the deposited data

How the results depend on the processing

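A pseudocount of 0.1 and no filter on low values kept the direction of every member and called 0 members. TMM-type rescaling called 1 gene higher and 0 lower across the table (993 and 872 at an unadjusted p under 0.05), voom on recovered reads called 51 and 22, and the replicate block called 175 and 64. The replicate numbers share only a number: deviations from the group means correlated at 0.07 between libraries of the same number, and the block called 0 members (2.04% of all genes). Leaving out 1 library gave 27 to 6381 genes higher and 5 to 526 lower, and 0 to 16 members higher and 0 to 1 lower. The extremes of 6381, 526, 16 and 1 came without knockout replicate 1. In the related lists the genes called higher without 1 library ranged from 0 to 10 for charging partners, 0 to 23 for transfer RNA processing, 0 to 11 for the ATF4 list and 0 to 5 for transporters. In the ATF4 list rescaling called 0 and voom 1.

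Medians under rescaling and under voom were 0.017 and 0.025 for all genes, -0.15 and -0.16 for the members, -0.21 and -0.22 for the cytosolic genes and 0.041 and 0.061 for the mitochondrial genes. By construction, TMM removes the shift of the median gene.

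Log2 fold changes of 20 members turned negative under rescaling: Aars -0.27, Eprs -0.21, Farsa -0.27, Farsb -0.18, Gars -0.31, Hars -0.18, Iars -0.25, Kars -0.29, Lars -0.21, Qars -0.12, Rars -0.26, Tars -0.15, Vars -0.19, Wars -0.057, Yars -0.16, Cars2 -0.043, Iars2 -0.15, Lars2 -0.25, Pars2 -0.063 and Yars2 -0.20. Under voom the same genes had Aars -0.29, Eprs -0.21, Farsa -0.25, Farsb -0.16, Gars -0.29, Hars -0.16, Iars -0.27, Kars -0.27, Lars -0.22, Qars -0.13, Rars -0.25, Tars -0.16, Vars -0.17, Wars -0.060, Yars -0.16, Cars2 -0.050, Iars2 -0.16, Lars2 -0.20, Pars2 -0.064 and Yars2 -0.22.

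With 1 library left out, the sign changed for Aars (-0.17 to 0.29), Eprs (-0.050 to 0.31), Gars (-0.047 to 0.11), Iars (-0.28 to 0.46), Kars (-0.0059 to 0.13), Lars (-0.17 to 0.43), Mars1 (-0.11 to 0.10), Tars (-0.045 to 0.41), Vars (-0.23 to 0.53), Iars2 (-0.051 to 0.42), Lars2 (-0.35 to 0.56) and Pars2 (-0.048 to 0.52). The lone library of a group is then assumed to vary like the other group. With 2 libraries a group and the spread taken from the trend, a missed threshold does not show that a gene did not differ.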

Other observations

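Tarsl2, a paralog of Tars outside the 36 genes, had 3.54 and 4.36 RPKM in control and 4.40 and 6.29 RPKM in knockout, with a log2 fold change of 0.35 (limma adjusted p = 0.518).

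Exonic bases of 13 members overlap another annotated gene, over 100 bases in 10 of them. In 1 of the 13, Aars with Exosc6, both genes lie on the same strand (1326 bases). Hars and Hars2 share 195 bases on opposite strands and Iars2 shares 2034 with Rab3gap2. Strand does not tell apart the reads of Aars and Exosc6 in their shared stretch. Without strand, reads from the opposite-strand stretches cannot be told apart either.

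The mitochondrial ribosomal RNA gene mt-Rnr2 had its highest library in knockout replicate 1 and its lowest in knockout replicate 2, as Lars2 and Gm15564 did, at 28601 and 23995 RPKM in control and 32125 and 21050 RPKM in knockout. The other mitochondrial ribosomal RNA gene, mt-Rnr1, did not have this order, at 739.5 and 535 RPKM in control and 745 and 606 RPKM in knockout, with its lowest library in control replicate 2. The Lars2 stretch was not compared with either ribosomal RNA gene, and a link between these orders was not tested.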
